A study of Homo sapiens with 12 samples.

Results

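The genes described here encode 10 enzymes of glycolysis: HK1 and HK2, GPI, PFKL and PFKP, ALDOA, TPI1, GAPDH, PGK1 and PKM. They were chosen by name out of 19974 protein-coding genes of the annotation, and their histone marks were read over the span of each gene and 5 kb on either side, below called the window. The 12 samples all came from KBM-7, a chronic myeloid leukaemia line with a nearly haploid genome, with no treatment named in the labels; formaldehyde-fixed chromatin was sheared to about 300 bp and sequenced after immunoprecipitation (ChIP-seq). Of these, 9 libraries were made with an antibody, to H3K4me3, H3K9ac, H3K27ac, H3K4me2, H3K4me1, H3K79me2, H3K36me3, H4K16ac or H3K27me3, and 3 were inputs without one. With 1 library per mark there is no replicate error and no test, and since the deposited intervals carry no count or score, the depth is unknown and every comparison describes these libraries. The intervals deposited as H3K36me3 and H4K16ac are identical, so they are given as 1 set, which leaves 8 sets, and which antibody it reflects cannot be told apart. KBM-7 is known to carry a part of chromosome 15 in more than 1 copy, and PKM lies there.

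Glycolysis turns glucose into pyruvate and yields ATP without oxygen. Hexokinases trap glucose in the cell by phosphorylation, phosphofructokinase commits the sugar to the pathway, and pyruvate kinase makes the last ATP. Most steps have several isoenzymes that differ between tissues, and dividing cells and leukaemias are known for high glycolytic flux. Of the marks, H3K4me3, H3K9ac and H3K27ac are typical of active promoters, and H3K4me1 with H3K4me2 of enhancers and promoter flanks. H3K79me2 and H3K36me3 are typical of the early and later part of transcribed genes. H3K27me3 is laid down by Polycomb repressive complexes at silent genes.

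The stretches of 250 bases before a transcription start are shown for HK1, HK2, PFKL and PGK1. The most upstream HK1 start lay inside H3K27me3, and the fifth had H3K4me3 within 1 kb but not over it. The starts of HK2, PFKL and PGK1 lay at or next to the edge of H3K4me3, as did that of GPI, which is not shown. The sequences are from RefSeq (GRCh38.p14), written in the direction of transcription. Capitals mark ACGTG, a core that hypoxia-inducible factors recognise, and GGGCGG, the GC box, on either strand (CACGT and CCGCCC on the other strand). The E-box CACGTG holds ACGTG on both strands and is in none of the stretches shown. Overlapping matches are counted each.
HK1, the most upstream of 7 annotated starts (plus strand, chr10:69269750-69269999): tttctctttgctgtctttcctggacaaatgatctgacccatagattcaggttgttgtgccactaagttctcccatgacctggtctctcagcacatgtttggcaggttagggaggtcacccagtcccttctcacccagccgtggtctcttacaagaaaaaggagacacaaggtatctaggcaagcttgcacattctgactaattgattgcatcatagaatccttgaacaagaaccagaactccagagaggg
HK1, the fifth annotated start (plus strand, chr10:69317931-69318180): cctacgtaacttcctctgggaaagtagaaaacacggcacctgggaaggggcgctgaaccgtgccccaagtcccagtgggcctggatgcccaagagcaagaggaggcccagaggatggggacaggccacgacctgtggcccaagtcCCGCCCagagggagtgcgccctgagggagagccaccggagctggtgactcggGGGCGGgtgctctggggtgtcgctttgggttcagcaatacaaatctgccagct
HK2, the most upstream start (plus strand, chr2:74833877-74834126): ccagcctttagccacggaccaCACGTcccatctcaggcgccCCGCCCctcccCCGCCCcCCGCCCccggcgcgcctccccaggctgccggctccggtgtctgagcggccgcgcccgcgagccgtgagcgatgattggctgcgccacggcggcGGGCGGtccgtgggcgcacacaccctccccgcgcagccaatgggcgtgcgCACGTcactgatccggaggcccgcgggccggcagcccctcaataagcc
PFKL, its annotated start (plus strand, chr21:44299803-44300052): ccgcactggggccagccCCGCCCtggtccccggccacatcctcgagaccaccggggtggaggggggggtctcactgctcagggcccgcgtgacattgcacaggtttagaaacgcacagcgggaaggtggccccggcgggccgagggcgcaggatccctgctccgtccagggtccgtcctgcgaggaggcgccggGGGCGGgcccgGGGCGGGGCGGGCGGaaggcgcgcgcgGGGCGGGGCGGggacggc
PGK1, its annotated start (plus strand, chrX:78103998-78104247): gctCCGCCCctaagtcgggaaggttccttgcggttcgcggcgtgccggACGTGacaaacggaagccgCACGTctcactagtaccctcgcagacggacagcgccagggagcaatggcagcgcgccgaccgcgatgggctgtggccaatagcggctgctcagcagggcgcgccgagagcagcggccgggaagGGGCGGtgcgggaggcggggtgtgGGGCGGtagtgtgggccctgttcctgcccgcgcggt
The most upstream HK1 stretch lay wholly inside H3K27me3, held 1 CpG and neither motif. The fifth held 11 CpG and 2 GC boxes, and the nearest H3K4me3 began at 69318451, after the start. The sixth, which is not shown, lay wholly inside H3K4me3 and held 30 CpG and 2 GC boxes. The HK2 stretch held 34 CpG, 2 ACGTG and 4 GC boxes, PFKL 30 CpG and 7 GC boxes, and PGK1 32 CpG, 2 ACGTG and 3 GC boxes. Not all starts with H3K4me3 were rich in CpG. Among stretches not shown, the first and second of ALDOA lay wholly inside H3K4me3 and held 9 and 4 CpG without a GC box. The third of ALDOA held 29 CpG and that of GPI 10. Over 22132 such stretches of protein-coding genes the median was 16 CpG, 20.2% held ACGTG and 53.7% held GGGCGG. A match is a run of letters and not a bound site.

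All 10 windows held H3K4me3, H3K9ac, H3K4me2, H3K4me1, H3K79me2 and the H3K36me3/H4K16ac set. Presence means at least 1 bp of overlap. Among all protein-coding genes the shares were 58.4% for H3K4me3, 62.9% for H3K9ac, 78.2% for H3K4me2, 56.4% for H3K4me1, 47.6% for H3K79me2 and 56.3% for H3K36me3/H4K16ac. H3K27ac was in 4 windows, those of ALDOA, GAPDH, PGK1 and PKM, against 10.9% of all genes. H3K27me3 was in 1 window, that of HK1, against 44.4%. With a margin of 10 kb it was in 3, since PFKP and PKM had H3K27me3 farther out. Within 5 kb, HK1 was also the 1 member with both H3K4me3 and H3K27me3, a pair found in 16.1% of all windows. The windows of the members ran from 13529 bp at TPI1 to 141883 bp at HK1 with a median of 39942 bp, against 34164 bp for all genes, and longer windows have more room for any mark.

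The share of the window under most marks was higher in these genes than in the median gene, and lowest at HK1 or a phosphofructokinase gene. The median percent covered was 11.6 for H3K4me3 against 0.970 over all genes, 7.03 against 1.67 for H3K9ac, 28.2 against 6.37 for H3K4me2 and 15.8 against 0.823 for H3K4me1. For H3K79me2 it was 36.4 against 0, and for H3K36me3/H4K16ac 59.2 against 6.33. ALDOA, TPI1 and GAPDH, the members with the shortest spans, had the highest percents for H3K9ac and H3K4me2. HK1 had the lowest for H3K4me3, H3K9ac, H3K4me2 and H3K79me2, PFKP for H3K4me1, and PFKL for H3K36me3/H4K16ac.

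**Figure D1:**
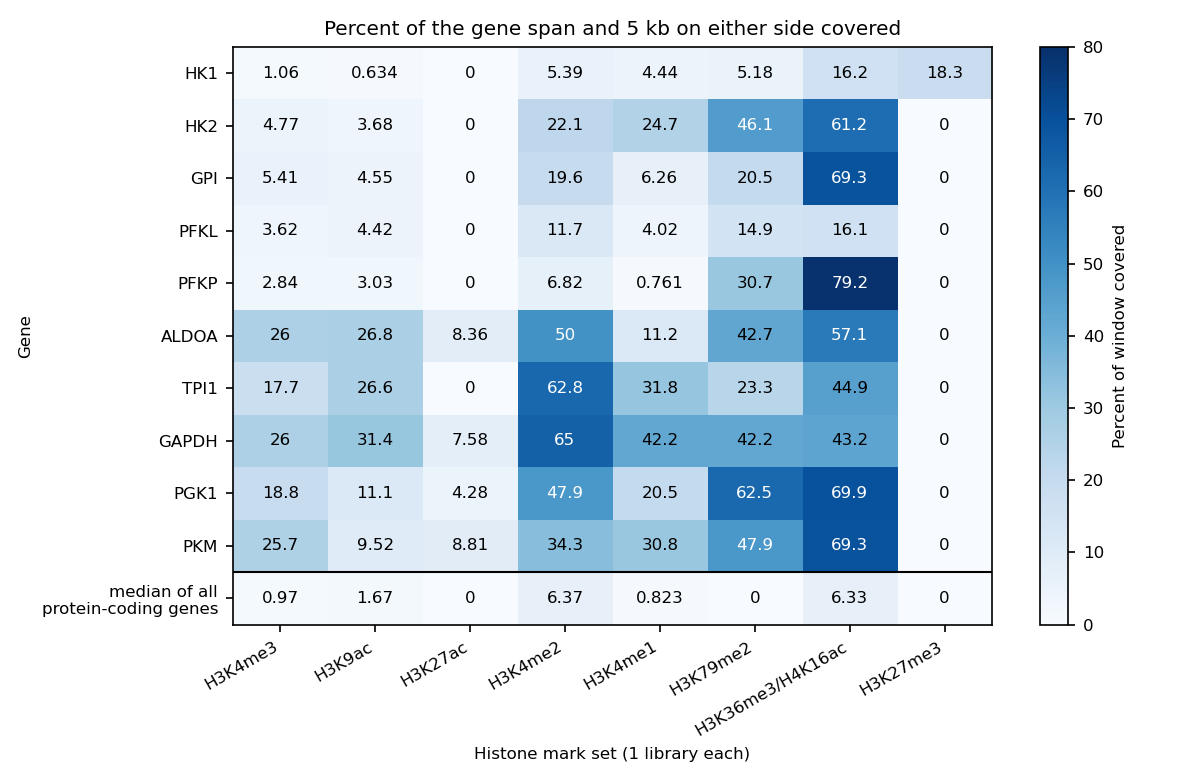
Percent of the gene span and 5 kb on either side covered by each of 8 sets (columns) in the 10 genes and, in the last row, as the median over all protein-coding genes. HK1 alone has H3K27me3 (18.3%), and the 4 non-zero H3K27ac cells are ALDOA, GAPDH, PGK1 and PKM.

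The count at the starts does not depend on gene length, but it does on the number of annotated starts, since any could qualify. By this count H3K4me3 and H3K9ac were again in every member, while H3K27ac was in 1 fewer. H3K4me3 and H3K9ac lay within 1 kb of an annotated start in all 10 members, against 55.6% and 58.9% of 15812 genes with a start in the RefSeq promoter table. H3K79me2 did so in 10 (40.2%) and H3K4me2 in 10 (70.0%). H3K27ac did so in 3, namely ALDOA, PGK1 and PKM (6.84%), H3K4me1 in 6 (20.5%), H3K36me3/H4K16ac in 3 (5.86%) and H3K27me3 in 1 (27.3%). An annotated start lay inside H3K4me3 in 9 members, against 41.1% of genes. GPI was the exception, with H3K4me3 beginning 9 bp after its start. With the most upstream start of that table alone, H3K4me3 and H3K9ac each lay within 1 kb in 9 members. For GPI the table holds 1 start, at 34364992, although the gene span begins at 34359718. Within 1 kb of that span end there was H3K4me2 and H3K4me1 but no H3K4me3 or H3K9ac.

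Hexokinase catalyses the first step, and its isoenzymes differed. HK1 (chromosome 10, 69270000 to 69401882) is the isoenzyme made in most tissues, and HK2 (chromosome 2, 74834127 to 74893359) the insulin-regulated one of muscle and fat that many tumours make in quantity. HK1 is known for alternative first exons used in testis and in red cells besides the general one; the promoter table does not name which start is which.

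HK1 had 1500 bp of H3K4me3 in 2 regions and 900 bp of H3K9ac, and no H3K27ac. HK2 had 3300 bp of H3K4me3 in 3 regions and 2550 bp of H3K9ac, also without H3K27ac. Per window this was 1.06% against 4.77% for H3K4me3 and 0.634% against 3.68% for H3K9ac. HK2 thus had the larger cover of both promoter marks by length and by share. H3K4me2 covered 5.39% of the HK1 window and 22.1% of that of HK2, and H3K4me1 4.44% and 24.7%. H3K79me2 covered 5.18% and 46.1%, and H3K36me3/H4K16ac 16.2% and 61.2%. H3K27me3 went the other way, at 18.3% for HK1 and 0% for HK2, and was the only 1 of the 8 sets with more cover at HK1.

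At HK1 the marks divided the annotated starts. The starts at 69270000 and 69270005 lay inside a region of 9000 bp of H3K27me3 (69265001 to 69274000), with 0 bp of the promoter marks within 1 kb. A second H3K27me3 region of 17000 bp (69292001 to 69309000) covered no annotated start. H3K4me3 began beyond it: 731 bp lay within 1 kb of the start at 69318181 and 1314 bp within 1 kb of that at 69319064, the only HK1 start inside H3K4me3. Polycomb cover and H3K4me3 were therefore on separate stretches of the gene and shared 0 bp. The starts at 69278496 and 69315769 had 0 bp of every set within 1 kb. That at 69334614 had 964 bp each of H3K4me2 and H3K4me1 and no H3K4me3, the combination typical of enhancers. HKDC1, a hexokinase-like gene just upstream, ends at 69267552, so the region of 9000 bp also covered its last part.

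**Figure D2:**
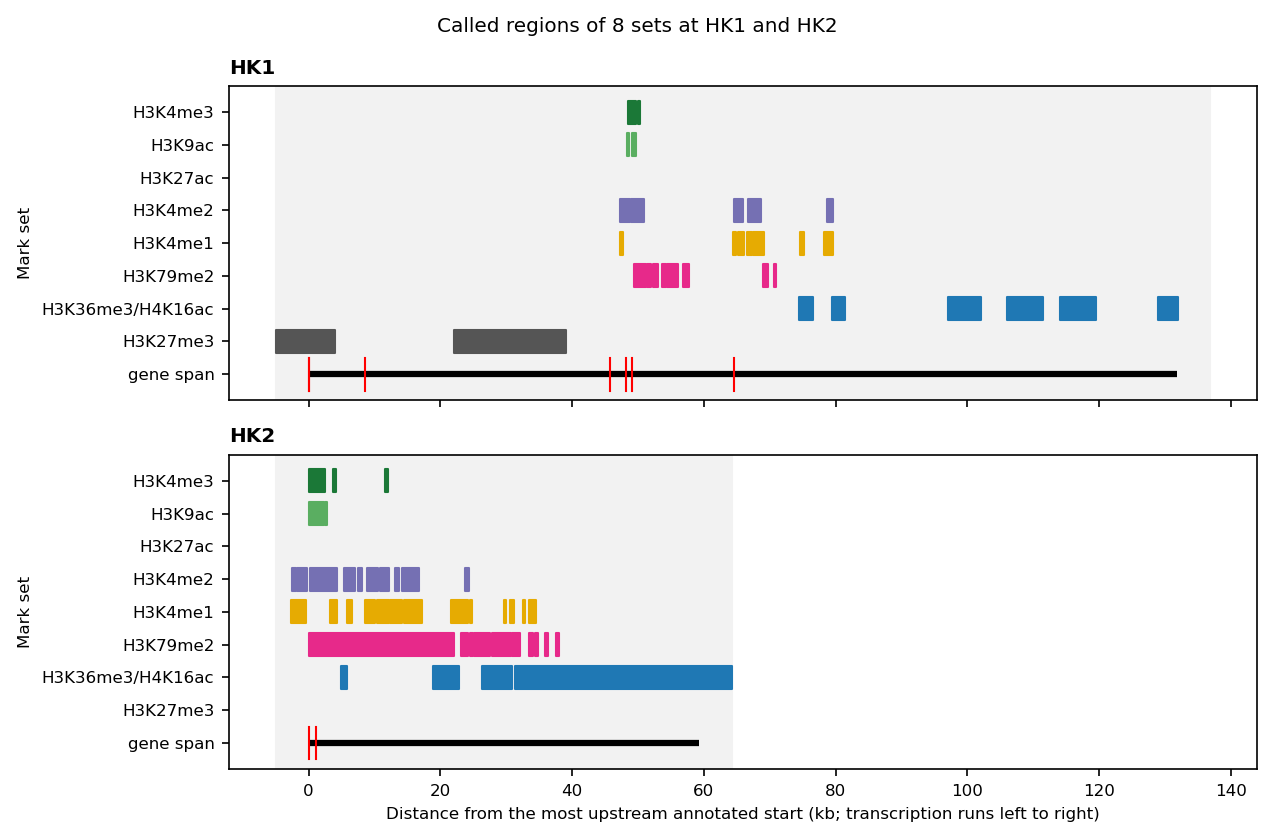
Called regions of each set at HK1 and HK2 by distance in kb from the most upstream annotated start; the black bar is the gene span, red ticks are annotated starts, and grey shading is the window. H3K27me3 lies at the left of HK1, before H3K4me3, and H3K79me2 runs 21900 bp without a break at HK2.

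Since the part of HK1 before its H3K4me3, with H3K27me3 on some of it, lengthens its window, both genes were also read from the start with the most H3K4me3 onward. Within 5 kb of that start HK1 had 1500 bp of H3K4me3 and HK2 2850 bp, and H3K9ac 900 and 2550 bp. From there to the end of the gene, 82819 bp in HK1 and 58190 bp in HK2, H3K79me2 covered 8.87% and 53.3% and H3K36me3/H4K16ac 27.6% and 64.2%. The gap between the isoenzymes in the gene-body sets thus held without the upstream part of HK1. H3K79me2 in HK1 was broken into 8 regions of at most 1800 bp, while HK2 had 1 of 21900 bp that held its start at 74835170 and 9 shorter ones. Only 411 of all genes had as much H3K79me2 in their window as HK2, itself included.

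HK2 also carried a long run of H3K4me1 and H3K4me2 after its promoter. Its 13 H3K4me1 regions summed to 17100 bp, a length reached by 238 genes in all, and 12 of them lay inside the gene, up to 33430 bp after the start at 74835170. The other one, of 2250 bp, lay before the gene and partly over HK2-DT, a divergent non-coding gene. HK1 had 7 H3K4me1 regions with 6300 bp, of which 6 lay 15287 to 30586 bp after its start at 69319064. No H3K27ac was called on any of these.

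Glucose phosphate isomerase, which makes fructose phosphate from glucose phosphate, had H3K4me3 at its start and 1 long H3K36me3/H4K16ac region over most of the gene. GPI (chromosome 19, 34359718 to 34402413) had 2250 bp of H3K4me3 at its start and 600 bp more at the start of its neighbour PDCD2L, inside the window. A single H3K36me3/H4K16ac region of 36500 bp began 1009 bp after its start and covered 85.3% of the gene span. H3K79me2 reached 10958 bp into the gene.

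Phosphofructokinase has a liver form, PFKL (chromosome 21, 44300053 to 44327373), and a platelet form, PFKP (chromosome 10, 3067548 to 3136805), which can join in mixed tetramers. Both had 1 H3K4me3 region at the start, no H3K27ac and no H3K27me3. The region was 1350 bp wide at PFKL and 2250 bp at PFKP, where it spanned 3 of 4 annotated starts. H3K9ac covered 1650 bp and 2400 bp. The fourth PFKP start, at 3104609, had 0 bp of all promoter marks within 1 kb and lay within H3K36me3/H4K16ac. As a share of the window H3K4me3 was 3.62% at PFKL and 2.84% at PFKP, and H3K9ac 4.42% and 3.03%, so the order of the pair in these marks turned with the measure. Within 5 kb of the most upstream start, where both have the same room, H3K4me3 covered 1350 and 2250 bp and H3K9ac 1650 and 1950 bp, both higher at PFKP.

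The forms differed most in the body of the gene. H3K79me2 covered 5550 bp or 14.9% of the PFKL window in 2 regions and 24300 bp or 30.7% of the PFKP window in 9. H3K36me3/H4K16ac covered 6000 bp or 16.1% at PFKL and 62805 bp or 79.2% at PFKP. PFKP had the highest share of H3K36me3/H4K16ac among the members and PFKL the lowest. The last region at PFKP, 41000 bp wide, ran on into the neighbouring gene PITRM1, but over the PFKP span alone the shares were still 22.0% and 83.5%. H3K4me1 was higher at PFKL, at 1500 bp or 4.02% against 603 bp or 0.761%. H3K4me2 was higher at PFKL as a share, 11.7% against 6.82%, and lower by length, 4350 against 5403 bp. PFKP had a further site 26024 to 28123 bp after its start at 3068627, with 2100 bp of H3K4me2 and 450 bp of H3K9ac and no H3K4me3.

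**Figure D3:**
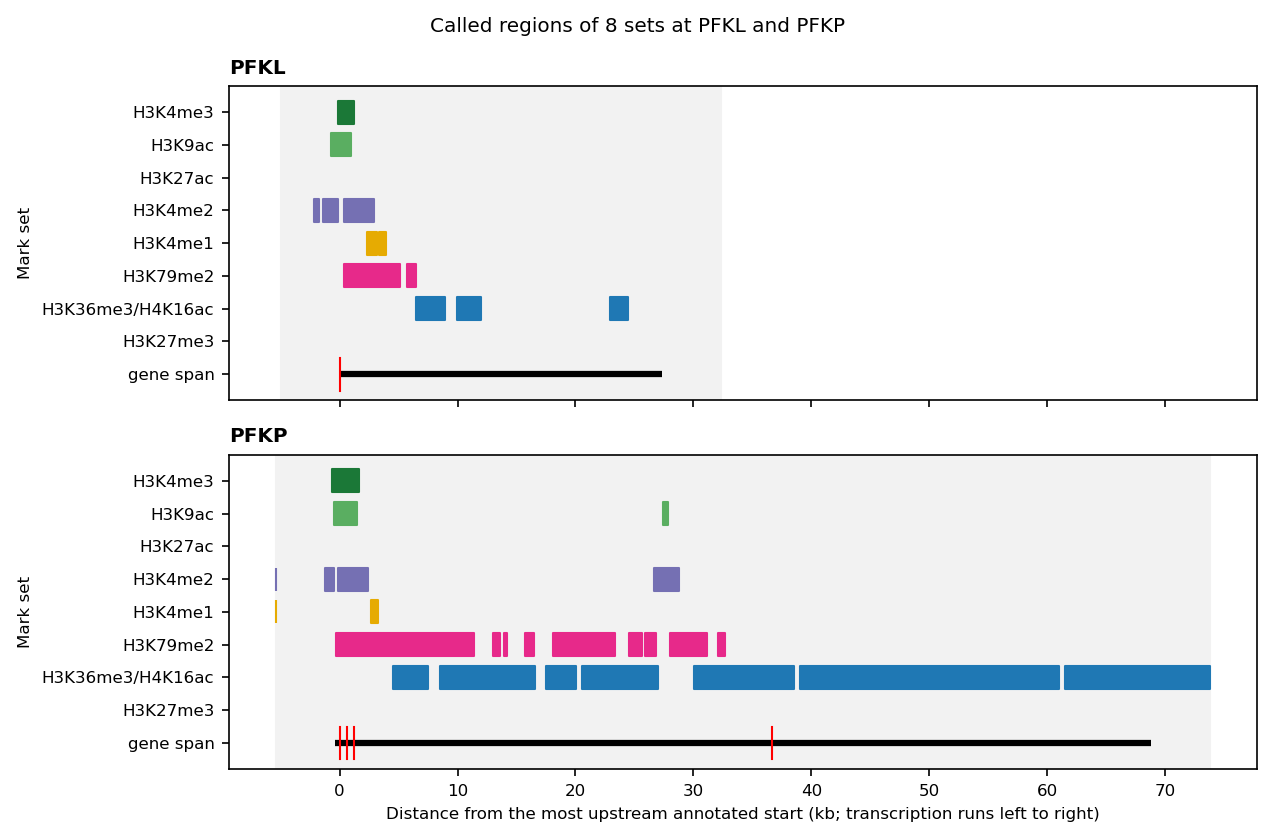
Called regions of each set at PFKL and PFKP by distance in kb from the most upstream annotated start; black bar, gene span; red ticks, annotated starts; grey, window. Both genes have 1 H3K4me3 region at the start, and H3K36me3/H4K16ac fills PFKP (83.5% of the span) but not PFKL (22.0%).

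Aldolase A splits the fructose bisphosphate into its triose phosphates, and triose phosphate isomerase interconverts these. ALDOA (chromosome 16, 30064279 to 30070420) had 4200 bp of H3K4me3 in regions of 1950 and 2250 bp, over its 3 annotated starts, and H3K9ac on the same bases there. H3K27ac covered 1350 bp, in a region of 1050 bp at the upstream starts and one of 300 bp. H3K79me2 covered 87.8% of the span. The protein-coding gene LOC112694756 overlaps the ALDOA span from 30053151 to 30070414, and the marks of the pair cannot be told apart.

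TPI1 (chromosome 12, 6867420 to 6870948) had 1800 bp of H3K4me3 over both its starts and 600 bp more at its neighbour SPSB2. H3K79me2 lay in 1 region of 3150 bp over 89.3% of the span, the highest such share among the members. H3K27ac was not called, although H3K9ac reached 3600 bp in the window. Of that, 2250 bp lay at the TPI1 start and the rest near SPSB2.

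GAPDH and PGK1 carry out the oxidation of glyceraldehyde phosphate and the first ATP-yielding step. GAPDH (chromosome 12, 6534517 to 6538371) had 3600 bp of H3K4me3 in 3 regions. The region of 2400 bp held the annotated start at 6535264, and those of 750 and 450 bp lay before the gene over GAPDH-DT, a non-coding gene. Its H3K27ac, 1 region of 1050 bp, also lay over GAPDH-DT, from -2313 to -1264 bp relative to the start, and covered 0% of GAPDH itself. H3K79me2 and H3K36me3/H4K16ac covered 87.8% and 61.5% of the short span.

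PGK1 (chromosome X, 78104248 to 78129295) had the widest single H3K4me3 region of the 10 genes. It was 6600 bp wide, from -147 to 6452 bp relative to the start, and only 20 of 14803 H3K4me3 regions were at least as wide. H3K9ac was broken into 3 regions over the same stretch, of 2550, 300 and 1050 bp, while H3K27ac formed 3 regions of 300, 900 and 300 bp, the first from -747 to -448 bp and so before H3K4me3. H3K4me2 ran on for 12450 bp without a break and H3K79me2 for 20700 bp. H3K79me2 covered 86.8% and H3K36me3/H4K16ac 83.0% of the PGK1 span, the bulk of it by both, with 17500 bp shared in the window.

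PKM encodes the muscle-type pyruvate kinase, whose splice forms include the M2 form of proliferating cells. PKM (chromosome 15, 72199029 to 72231591, minus strand) had the most H3K4me3 of the members, 10950 bp in 5 regions from -860 to 11289 bp relative to the start. Its cover was among the 20 highest of all genes. H3K9ac followed it less far, with 3000 bp at the start and 1050 bp about 3 kb on, up to 4089 bp. H3K27ac covered 3750 bp in 3 regions, more than at the other members and reached by 67 genes in all. H3K4me1 shared 8400 bp with H3K4me3 here, against at most 900 bp at any other member. Unlike PGK1, where the wide H3K4me3 was 1 unbroken region, PKM combined H3K4me3 with H3K4me1 over the same inner stretch.

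Values at PKM come with its place on chromosome 15. Between 61 and 90 Mb, the mean width of H3K4me3 regions was 1926 bp, against 1035 bp on the rest of the chromosome, and that of H3K27ac regions 1162 against 690.0 bp. H3K4me1 regions averaged 1967 against 998 bp, those of H3K79me2 4393 against 1965 bp and those of H3K36me3/H4K16ac 22576 against 7068 bp. H3K27ac was in 17.9% of 257 windows there and in 9.44% of 360 elsewhere on chromosome 15. PKM was among 5 genes of that stretch with at least its H3K4me3 cover and 2 with at least its H3K27ac cover. The part of copy number in the values of PKM was not tested.

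**Figure D4:**
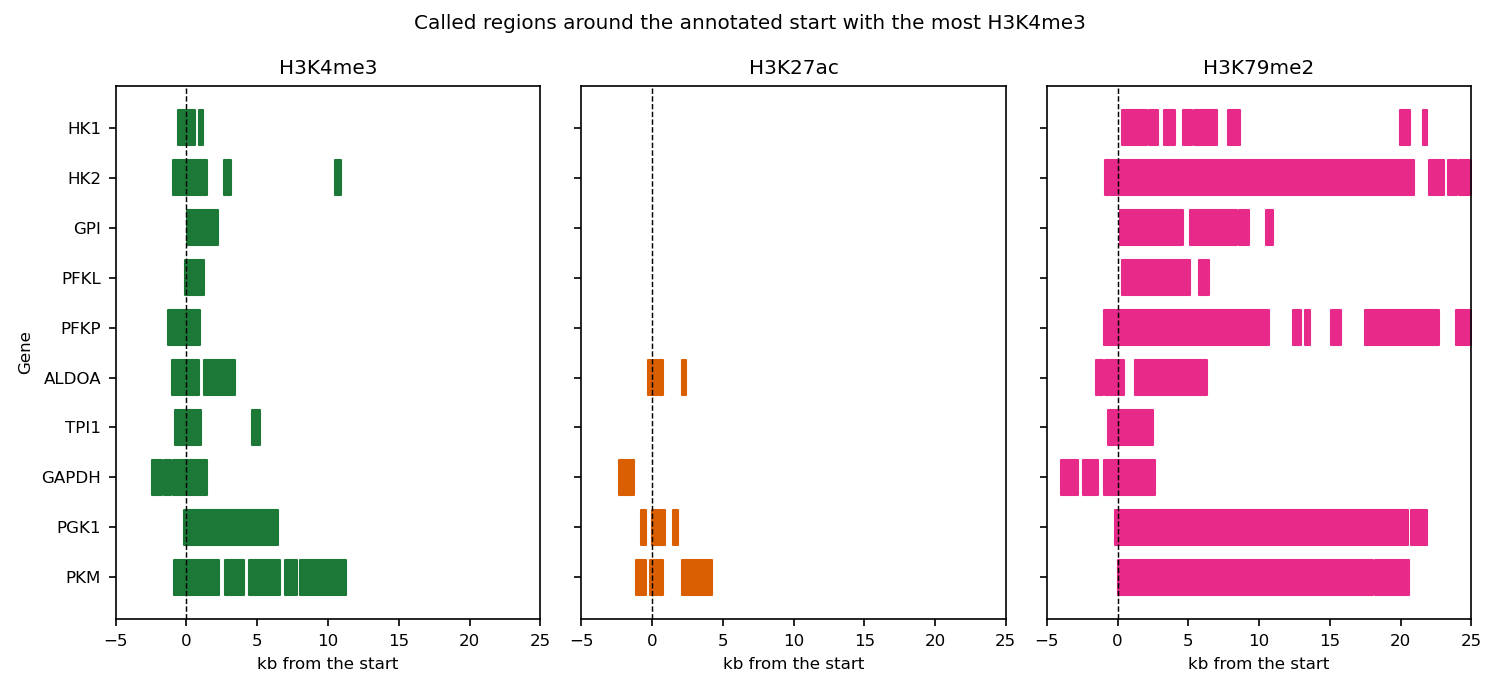
Called regions of H3K4me3, H3K27ac and H3K79me2 from 5 kb before to 25 kb after the annotated start with the most H3K4me3 (dashed line), 1 row per gene. H3K27ac is seen at 4 genes, at GAPDH before the start only, and H3K4me3 reaches farthest into PKM (11289 bp).

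H3K79me2 lay within 1 kb of a start in every member and ended before the gene did in all but ALDOA. Its last base in the gene lay 21886 bp after the start at HK1 and 37030 bp at HK2, of 82818 and 58189 bp to the gene end. It was 10958 of 37421 bp at GPI, 6497 of 27320 bp at PFKL, 32023 of 68178 bp at PFKP, 20589 of 32161 bp at PKM and 21902 of 25047 bp at PGK1. At ALDOA it passed the end, at 6303 of 5923 bp. Inside the genes the H3K36me3/H4K16ac set began 237 bp after the start at GAPDH, 896 bp at TPI1 and 1009 bp at GPI, 3004 to 4190 bp at ALDOA, PGK1, HK2, PFKP and PKM, 6448 bp at PFKL and 25437 bp at HK1. In the windows of 8 members the sets overlapped, by 1600 bp at TPI1 to 17500 bp at PGK1, while at PFKL they shared 50 bp and at HK1 0 bp.

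H3K4me1 did not overlap H3K4me3 at most members, and at HK1 and PGK1 most of it lay farther into the gene. The bases shared by the marks were 0 at HK1, GPI, PFKL, PFKP, TPI1 and PGK1. They were 300 at ALDOA and GAPDH, 900 at HK2 and 8400 at PKM. H3K4me1 cover ran from 603 bp at PFKP to 17100 bp at HK2.

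By the combination of sets present, the members fell into 3 kinds. HK2, GPI, PFKL, PFKP and TPI1 had 6 sets, all but H3K27ac and H3K27me3. That combination was the most common one in the annotation, at 4134 genes or 20.7%. ALDOA, GAPDH, PGK1 and PKM had these and H3K27ac, as did 1480 genes or 7.41%. These kinds differ only in H3K27ac, the set with the fewest called regions. HK1 had the 6 and H3K27me3, as did 1055 genes or 5.28%. By number of genes these combinations ranked 1, 3 and 6, so each is common outside glycolysis.

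The rest of the pathway was read from a list of 30 genes of other isoenzymes, other steps, glucose and lactate transporters, regulators and gluconeogenesis. H3K4me3 was in 20 of the 30 windows and H3K27me3 in 15; 13 genes had H3K4me3 alone, 8 H3K27me3 alone, 7 both and 2 neither. The share with H3K4me3, 66.7%, and the 15 of 30 with H3K27me3 lie near the 58.4% and 44.4% of all genes. H3K27ac was in 7 windows, 23.3% against 10.9%.

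The general isoenzymes of the steps without a member carried H3K4me3 too. H3K4me3 covered 2400 bp and H3K27ac 300 bp at PGAM1, the general phosphoglycerate mutase, and 4800 and 1350 bp at ENO1, the general enolase. Of the H3K4me3 at PGAM1, 1950 bp lay at its start and 450 bp outside its span, nearest to the start of LOC644215. LDHA and LDHB, the subunits of lactate dehydrogenase, had 2850 and 1800 bp of H3K4me3, with 750 bp of H3K27ac at LDHA and 0 at LDHB. The 4 genes had no H3K27me3. The glucose transporter genes SLC2A1 and SLC2A3 had 2550 and 3000 bp of H3K4me3, and the lactate transporter genes SLC16A1 and SLC16A3 2550 and 4167 bp, of which 1 region at SLC16A3 lay at the start of CCDC57. H3K27ac covered 450 bp at SLC16A3, 450 bp at PFKFB4, which sets the level of a phosphofructokinase activator, and 1050 bp at PCK2, the mitochondrial enzyme of gluconeogenesis.

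Other isoenzymes varied. The hexokinase HK3 had H3K27me3 over 71.1% of its span and HKDC1 over 20.2%, and both lacked H3K4me3. LDHC, the testis form of lactate dehydrogenase, had H3K27me3 over 46.5% and also lacked H3K4me3. PGK2, the testis form of the kinase, had none of the 8 sets, and PGAM2, the muscle mutase, only 2774 bp of H3K36me3/H4K16ac. Of the genes of gluconeogenesis, FBP1, FBP2 and PCK1 had H3K27me3 over 90.6%, 95.7% and 100% of the span and G6PC1 over 29.3%, all without H3K4me3, while PCK2 had 1200 bp of H3K4me3 and no H3K27me3.

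Several windows held H3K4me3 that lay at the start of another gene. The region in the ALDOC window lay at PIGS, that of GAPDHS at TMEM147, that of ENO3 at PFN1, that of PKLR at FDPS and that of PFKFB1 at APEX2. ALDOC, ENO3, PKLR and PFKFB1 had 0% of their own span under H3K4me3. PKLR had H3K27me3 over 31.0% of its span, and GAPDHS had 5545 bp of it in the window. ALDOC and ENO3 had no H3K27me3, and the ENO3 window held 600 bp of H3K27ac. PFKM, the muscle phosphofructokinase, had 1500 bp of H3K4me3 at a start shared with SENP1 and 29500 bp of H3K27me3 over 71.9% of its span. ENO2, the neuronal enolase, had 1697 bp of H3K4me3 in the window, of which 300 bp lay at its start.

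Regulators were mixed. PFKFB2 had H3K27me3 over 96.8% of its span and no H3K4me3, and PFKFB1 over 88.2%. PFKFB3 had 3600 bp of H3K4me3 and 4500 bp of H3K27me3, TIGAR 450 and 1528 bp, and BPGM 1200 and 2148 bp. H3K27me3 covered 0% of the TIGAR and BPGM spans and so lay beside these genes.

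**Figure D5:**
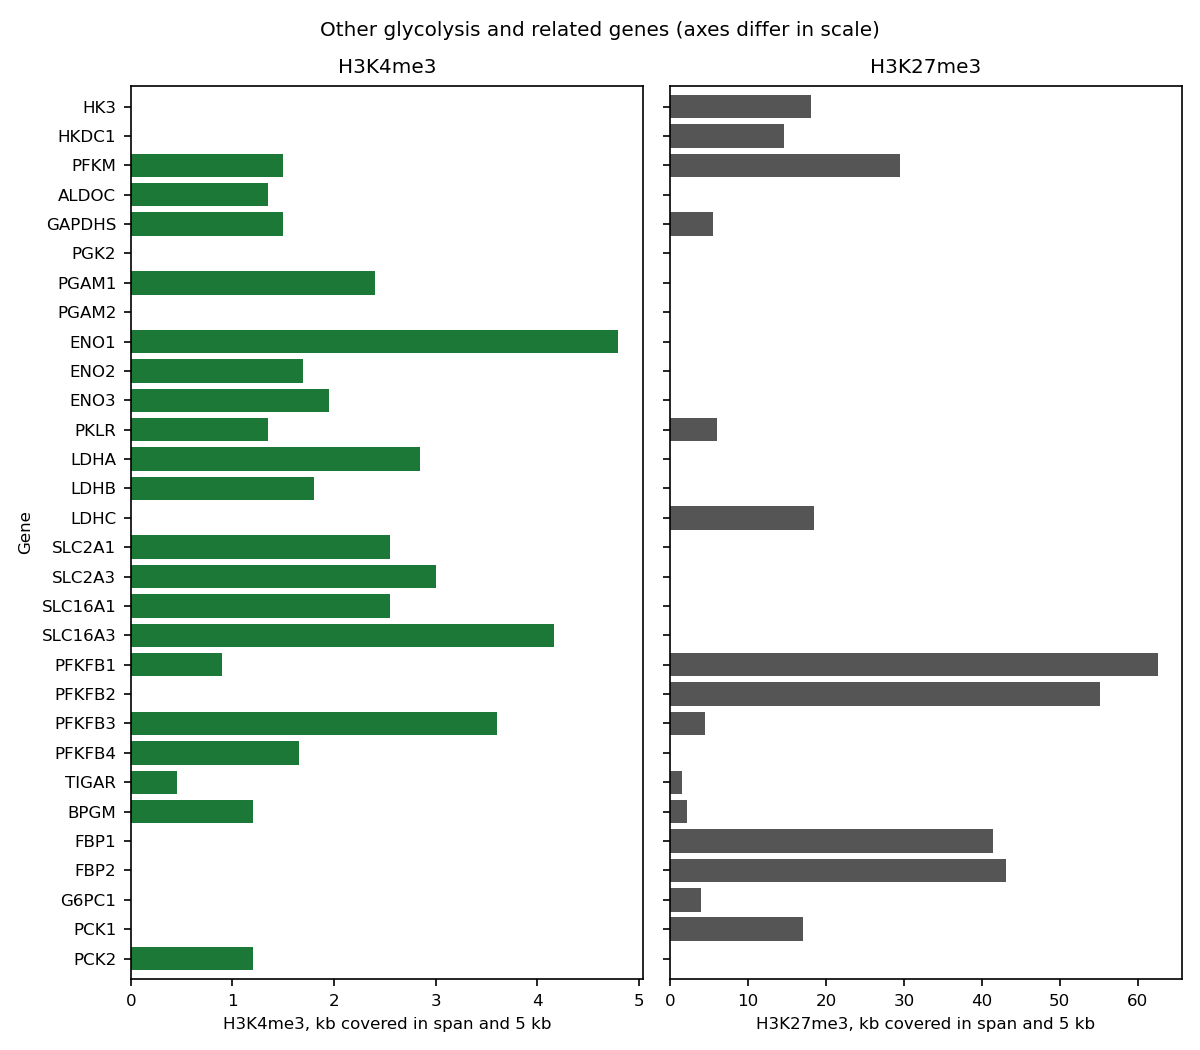
Kilobases of H3K4me3 (left) and H3K27me3 (right) in the windows of 30 other glycolysis and related genes, 1 bar per gene, with different scales. Genes such as ENO1 and LDHA have a bar on the left alone, and HK3, FBP1, FBP2 and PCK1 on the right alone.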

How the data were processed

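The authors deposited 1 list of called intervals (chromosome, start, end, name of a mark), which holds no count, score or signal; these positions are its only other measure. cutadapt, Bowtie2, MACS and GRCh38 are named in the submitters' processing notes. Versions, thresholds and inputs per call were not given in the sources used here. By the labels 1 input belongs to H3K9ac, H3K4me3 and H3K79me2, 1 to H3K27me3 and 1 to the other marks. Starts counted from 0 were brought to 1 by their remainder on a grid of 50 bp. Overlapping or adjacent intervals were joined into regions, on chromosomes 1 to 22 and X. The labels H3K36me3 and H4K16ac held 45695 identical intervals and were used as 1 set. Intervals under 1 further mark name matched no sample and were not used. Genes and starts came from RefSeq tables (GRCh38.p14). Of the members 10 matched a start, and of 19974 protein-coding genes 15812 did. Cover was computed with Python 3.11.15, numpy 2.4.6 and pandas 2.3.3, and its functions were tested on simulated data. Calls need 1 bp of overlap. No p-value was computed. Some genes of the pathway are not reported here. Named were the 10 members, isoenzymes and steps without a member, other listed genes with H3K27ac or H3K27me3, and neighbours; SLC2A1, SLC2A3 and SLC16A1, and the genes whose starts held H3K4me3 in another gene's window, were added after their values were seen. The members and lists were chosen with earlier results of these data known. Other margins, overlaps, widths and start windows were tried; leaving out PKM, single starts and windows around the marked start were added later.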

Additional observations from a re-analysis of the deposited data

How the results depend on the processing

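Of 90 recounts under other settings, 85 stayed within 1.5 times the reported count. Those that did not were H3K27me3 in the members' windows, 3 in place of 1 with a margin of 10 kb (PFKP and PKM joined HK1), and the pair counts. Around the start with the most H3K4me3, 0 sets in place of 1 had more cover at HK1 than at HK2. The 4 sets with more cover at PFKL than at PFKP became 1 by covered bp and 2 within 5 kb of the most upstream start or of the start with the most H3K4me3. PFKL minus PFKP turned negative by covered bp for H3K4me3 (-900 bp), H3K9ac (-750 bp) and H3K4me2 (-1053 bp), and within 5 kb of either start for H3K4me3 (-9.00 percentage points) and H3K9ac (-3.00 percentage points). The windows of PFKL and PFKP differ in length, at 37321 and 79258 bp, and the part of length in these turns was not tested. Without PKM, H3K27ac was in 3 windows of the other members. Counts of all 10 members cannot change with a wider margin or start window, and leaving out PKM lowers a count by 1 at most. Those recounts had little or no room to move. Of 80 covered lengths, 66 stayed within 1.5 times over the gene span alone, 75 with a margin of 2.5 kb, 73 with 10 kb and 71 among wider regions. Lengths of 0 bp, such as H3K27ac at HK2, are among these 80. They could change only with the margin of 10 kb. No paired analysis was possible because each mark has 1 library. Depth is unknown, so an absent region may be a missed one.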
